A study of Mus musculus with 6 samples.

Results

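Amino acid transporter genes were examined in PAM212 cells, a mouse line labelled as keratinocytes, with and without overexpression of the microRNA miR-28-3p. The genes were chosen by name, as all rows of the deposited gene table of the solute carrier (Slc) families Slc1, Slc3, Slc6, Slc7, Slc36, Slc38 and Slc43, with Slc7a11 left out. This gave 63 of 21936 genes. Polyadenylated RNA was sequenced from 3 libraries of cells infected with a lentivirus that carries the mouse miR-28-3p gene, and from 3 control libraries whose treatment label reads as untreated. The series' design text speaks of melanocytes, where the sample labels have keratinocytes. All cells grew in DMEM with 10% serum, and the labels do not say whether the controls carried an empty vector, or whether the infected cells are a clone or a pool. Nor do they state that the libraries within each group come from separate cultures, so the p-values measure a spread between libraries that may be technical.

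Animal cells take up, exchange and release amino acids through carriers of these families. Members of Slc7 called light chains work only when joined to a heavy chain of the Slc3 family, which brings them to the cell surface. Slc1 and Slc38 carriers use the sodium gradient to load glutamine, alanine, serine or glutamate into the cell, while some Slc36 and Slc38 carriers sit in the lysosome and are tied to the nutrient-sensing kinase mTOR. Slc6 also holds carriers of creatine, taurine and neurotransmitters, which the rule takes with the rest. The name rule took Slc7a6os as well, which is a neighbour of Slc7a6 on the other strand and no transporter.

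Libraries held between 14309898 and 16383374 counted reads. Levels are given in CPM, which relate a gene's count to the library size after TMM scaling, as mean ± SD over n = 3 libraries in each group. Where levels of different genes are compared, the deposited FPKM values are used, which also divide by gene length. Differences were tested with edgeR's quasi-likelihood test over 11809 genes with Benjamini-Hochberg adjustment, and a call means an adjusted p under 0.05. Each SE was taken as the absolute log2 value over the square root of the F statistic. Of 12 keratinocyte markers, Krt5 and Krt6a were at 0 in every library and Krt15 was at 0 with overexpression, while Krt14, Cdh1 and Itga6 were present. The summed keratinocyte markers stood at 1270 to 1300 CPM with overexpression and at 1020 to 1040 CPM in the controls. Cdh1 and Itga6 made up most of that sum. Cdh1, Itga6, Sfn and Krt14 were higher with overexpression in every library. Perp, Itgb4, Dsg3, Trp63, Krt15 and Krt17, the last near 0, were lower in every one. The summed fibroblast markers were 16.2 to 17.1 against 43.3 to 52.0 CPM, nearly all from Pdgfra. Immune markers summed to 7.42 to 10.4 against 62.6 to 65.5 CPM, nearly all from Cd74 and Cd68, with Adgre1 and Cd3e at 0 and Ptprc near 0. Melanocyte markers summed to 7.32 to 8.22 against 8.04 to 9.78 CPM, mostly from Mitf, with Tyr and Kit at 0. Mitf and Pmel were lower in every overexpression library, while Mlana, near 0, was higher in every one. Tyrp1 and Dct were at 0 in the controls and at 0.504 to 1.19 and 0.528 to 0.821 CPM with overexpression. Neuron and glia markers summed to at most 1.02 CPM in any library. What part these marker differences have in the results on the transporters was not tested. In bulk RNA, fewer cells of a type and less RNA per cell cannot be told apart.

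Of the 63 genes, 42 had any count and 23 passed the filter on low counts. Among those 23, 8 rose with overexpression and 11 fell, and 4 had no call. The background is high in this comparison, since 42.1% of all tested genes were called higher and 43.9% lower, 86.0% in all. The 8 and 11 genes are 34.8% and 47.8% of the tested family genes, so neither share stands far from that background. Of all calls 49.0% were upward, but 38.6% with upper quartile scaling, which moved the median of all genes to -0.26 on the log2 scale and gave 8 higher and 14 lower family genes. The median log2 fold change was -0.02 over the 23 genes and -0.03 over all tested genes, while the median size was 1.00 and 0.72. Changes of at least 1.5-fold were called upward in 6 family genes and downward in 10, against 26.5% and 30.8% of all genes. At least 2-fold changes were called upward in 5 and downward in 7, against 14.8% and 21.0% of all genes. The groups did not overlap in 19 of the genes, with overexpression above in 8 and below in 11, where 42.2% and 43.8% of all genes did so. The genes went in both directions within families, with 2 higher and 4 lower of 6 tested in Slc38, 2 and 3 of 7 in Slc7, 1 and 1 of 2 in Slc1, and 2 and 1 of 4 in Slc6.

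**Figure D1:**
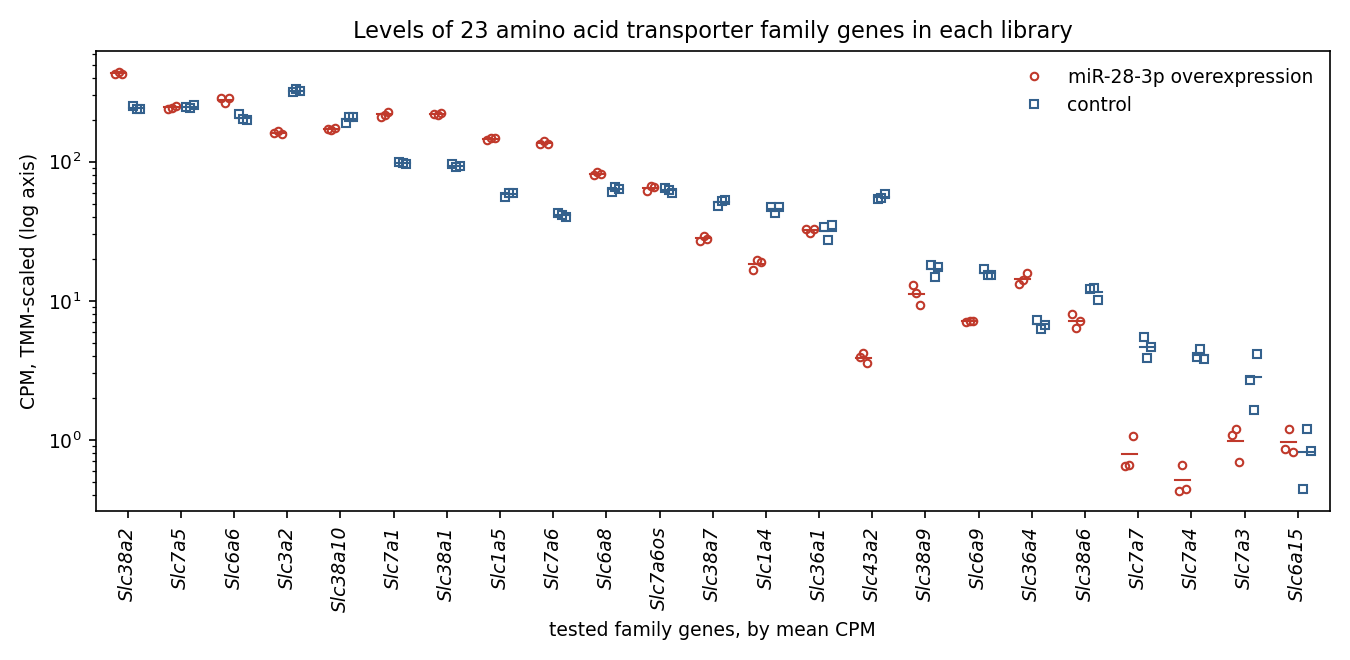
Level of each of the 23 tested family genes in each library, in CPM on a log axis, with overexpression libraries as circles and control libraries as squares, and bars at the group means. The groups are apart in 19 genes, and Slc43a2 shows the widest gap among genes above 5 CPM, at 3.91 against 55.9 CPM.

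**Figure D2:**
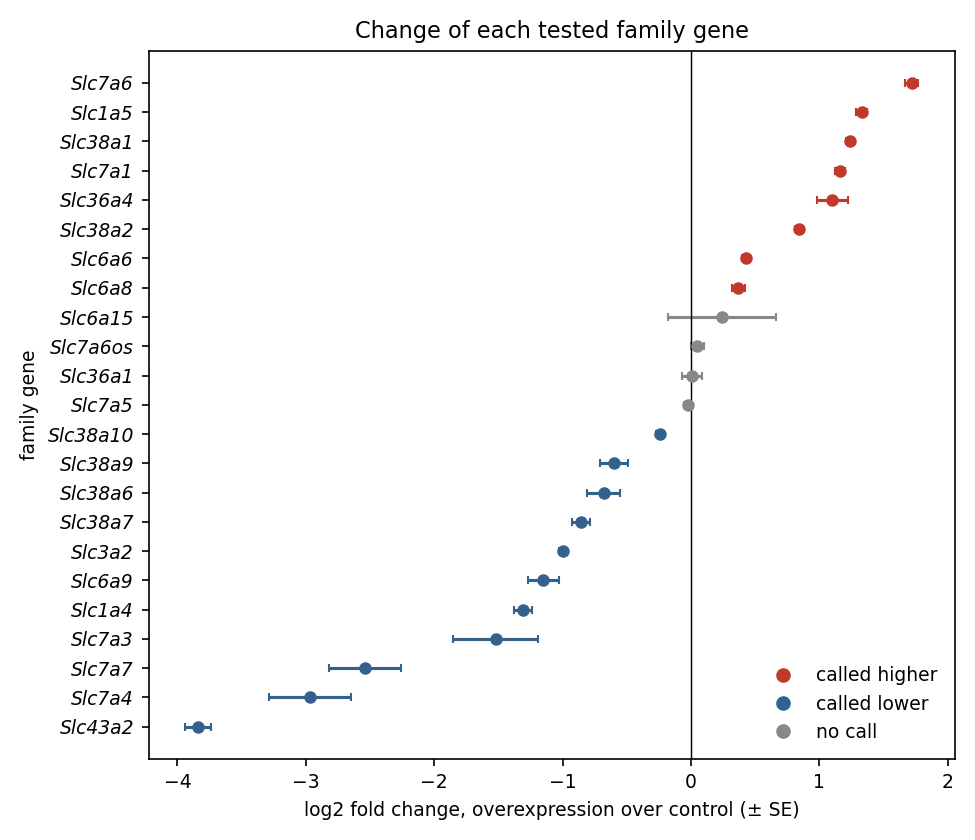
Log2 fold change of each tested family gene, overexpression over control, with its SE as the horizontal bar, coloured by call. Values run from 1.72 for Slc7a6 down to -3.84 for Slc43a2.

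The overexpressed microRNA pairs with its targets through a seed at bases 2 to 8, shown in capitals in the mature sequence from RefSeq (GRCm38.p6, chromosome 16, 24827908 to 24827929, plus strand). Below it stand the matches to that seed (ATCTAGT, in capitals, 7 letters on the transcript strand) in the longest annotated 3' UTR of the 3 tested family genes that hold one.
mmu-miR-28a-3p: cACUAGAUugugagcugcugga
Slc36a4: tgtaagggatttATCTAGTgcagataacag
Slc38a6: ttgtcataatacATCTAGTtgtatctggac
Slc38a9: gattacgtgccaATCTAGTaatggttaatt
The match lies at bases 3508 to 3514 of a 3' UTR of 4983 bases in Slc36a4, at 1165 to 1171 of 3519 in Slc38a6 and at 5774 to 5780 of 7085 in Slc38a9. In Slc38a9 the base after the match is an A, as in the longest class of seed site. Of these 3 genes Slc36a4 was called higher and Slc38a6 and Slc38a9 were called lower. A match was thus held by 3 of the 23 tested family genes (13.0%), against 6.72% of the 11679 tested genes with a 3' UTR of at least 50 bases. Slc43a2, Slc7a4 and Slc7a7, which fell most, hold no such match in their longest annotated 3' UTR. That of Slc43a2 holds 2 shorter matches, to bases 2 to 7, a kind held by 27.5% of all tested genes.

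The heavy chain gene Slc3a2 fell, while of its light chains Slc7a6 rose, Slc7a7 fell and Slc7a5 had no call. Slc3a2 (ENSMUSG00000010095, GRCm38 chromosome 19, 8706882 to 8723369, minus strand) encodes the heavy chain 4F2hc, also known as CD98. It had 160, 165 and 157 CPM with overexpression, against 317, 331 and 320 CPM in the controls. All overexpression libraries lay far below all controls, and the fall was 2.01-fold (it fell by 1.00 ± 0.03 SE on the log2 scale, n = 3 each, edgeR adjusted p = 7.62e-39). Slc7a5 (chromosome 8, 121881150 to 121907694, minus strand), the light chain LAT1, exchanges large neutral amino acids such as leucine. It stood at 241, 245 and 251 CPM with overexpression and at 246, 243 and 256 CPM in the controls, with overlapping groups. Its log2 fold change was -0.02 ± 0.03 SE and was not called (edgeR adjusted p = 0.537). This value turns with the scaling, as it was called lower at -0.25 with upper quartile scaling and at -0.11 in each of the 3 fits of FPKM values, and higher at 0.14 once the trend on gene length was removed.

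Slc7a6 (chromosome 8, 106168857 to 106198706, plus strand), the light chain y+LAT2, exchanges cationic for neutral amino acids and showed the largest rise of the 23 genes. It had 134, 142 and 135 CPM with overexpression, against 42.9, 41.5 and 40.1 CPM in the controls, with no overlap. The rise was 3.29-fold (log2 1.72 ± 0.05 SE, n = 3 each, edgeR adjusted p = 2.97e-40). Slc7a7, the related light chain y+LAT1, went the other way, with 0.649, 0.66 and 1.07 CPM with overexpression against 5.53, 3.89 and 4.63 CPM in the controls. That is a 5.80-fold fall at a low level (log2 -2.54 ± 0.28 SE, edgeR adjusted p = 3.87e-12), and 232 of its exon bases are shared with Oxa1l on the opposite strand. Slc7a6os, beside Slc7a6, had 64.6 ± 2.40 CPM with overexpression and 62.3 ± 2.69 CPM in the controls and was not called (edgeR adjusted p = 0.326). It has no exon bases in common with Slc7a6.

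Per length, Slc3a2 was the most abundant of the 63 genes in the controls and the third with overexpression. It had 43.9, 45.3 and 43.1 FPKM with overexpression, against 93.0, 96.7 and 93.4 FPKM in the controls. Its light chains among the 63 genes (Slc7a5, Slc7a6, Slc7a7, Slc7a8 and Slc7a10) summed to 91.5, 94.3 and 94.1 FPKM with overexpression and to 80.2, 78.3 and 81.9 FPKM in the controls. The sum of light chain FPKM over heavy chain FPKM was therefore 2.08, 2.08 and 2.18 with overexpression and 0.863, 0.81 and 0.876 in the controls, which do not overlap. Within that sum Slc7a6 held 30.2 to 32.0% with overexpression and 11.1 to 12.1% in the controls. With Slc7a11, the cystine carrier that also binds Slc3a2, the ratio was 2.10 to 2.20 against 0.878 to 0.944. This ratio was formed after the values of its parts had been seen and is given as a description. The rBAT heavy chain gene Slc3a1, which the kidney uses, had 12, 5 and 1 counts with overexpression and 4, 6 and 11 in the controls, too few for the test, and shares 601 exon bases with Prepl on the opposite strand.

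**Figure D3:**
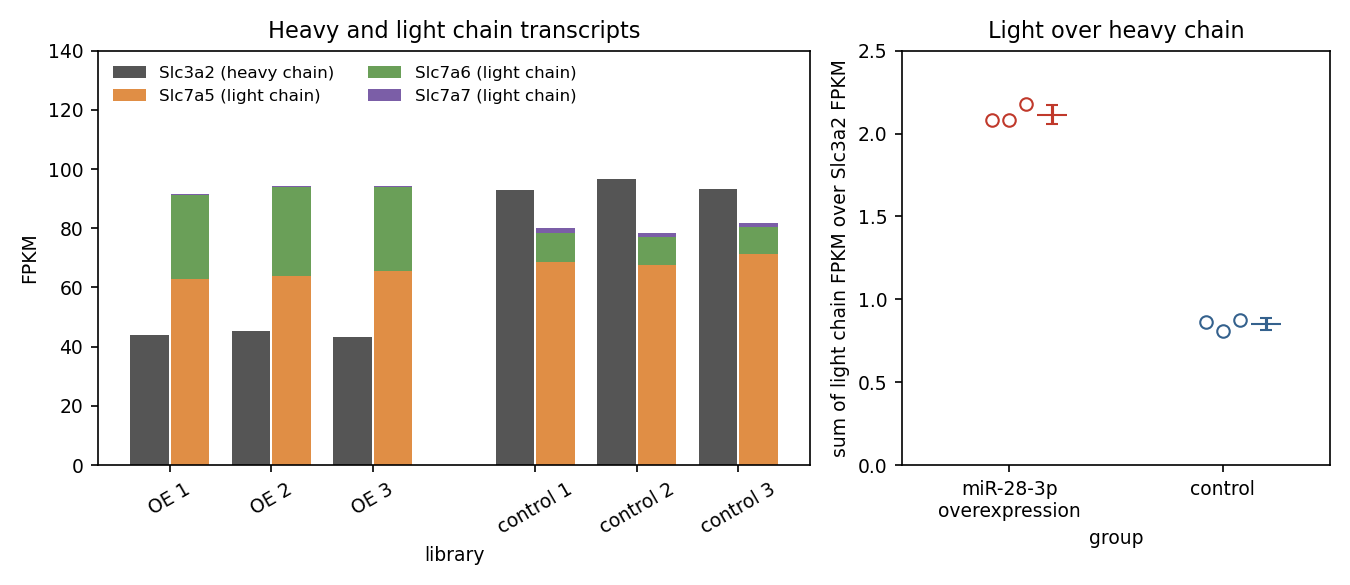
Left, FPKM of the heavy chain Slc3a2 beside the stacked light chains Slc7a5, Slc7a6 and Slc7a7 in each library. Right, the sum of light chain FPKM over Slc3a2 FPKM by library (circles) with mean ± SD, at 2.11 ± 0.0577 with overexpression and 0.850 ± 0.0350 in the controls (n = 3 each).

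Carriers of cationic amino acids that need no heavy chain also differed in direction. Slc7a1 (chromosome 5, 148327410 to 148399904, minus strand), the arginine and lysine carrier CAT1, had 211, 216 and 229 CPM with overexpression and 99.0, 98.0 and 95.8 CPM in the controls. The groups were far apart, and the rise was 2.24-fold (log2 1.16 ± 0.04 SE, n = 3 each, edgeR adjusted p = 5.73e-38), or 0.69 on the log2 scale with the trend on gene length removed. Slc7a3, the related carrier CAT3, averaged 0.988 ± 0.259 CPM with overexpression and 2.82 ± 1.24 CPM in the controls (log2 -1.52 ± 0.33 SE, edgeR adjusted p = 2.67e-05). Slc7a4, a relative of the CAT carriers with no settled substrate, averaged 0.511 ± 0.129 CPM with overexpression and 4.08 ± 0.354 CPM in the controls. It fell 7.85-fold (edgeR adjusted p = 8.62e-13), and 554 of its 4153 exon bases are shared with P2rx6 on the opposite strand. Slc7a2, or CAT2, had 1 count in all with overexpression and 7 in the controls and was not tested.

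Of 4 tested sodium-coupled carriers of glutamine and small neutral amino acids at the cell surface, Slc1a5, Slc38a1 and Slc38a2 rose and Slc1a4 fell. Slc1a5 (chromosome 7, 16781340 to 16798274, plus strand), the glutamine exchanger ASCT2, had 143, 148 and 149 CPM with overexpression, against 55.6, 59.2 and 59.7 CPM in the controls. No library overlapped, and the rise was 2.52-fold (log2 1.33 ± 0.04 SE, n = 3 each, edgeR adjusted p = 1.11e-36). Its nearest relative Slc1a4 (chromosome 11, 20302180 to 20332713, minus strand), the alanine, serine and cysteine exchanger ASCT1, had 16.7, 19.7 and 19.0 CPM with overexpression and 47.6, 42.9 and 47.2 CPM in the controls. It fell 2.48-fold (log2 -1.31 ± 0.07 SE, edgeR adjusted p = 3.61e-24), so that the pair of related exchangers went in opposite directions. In FPKM, Slc1a5 stood at 34.0 ± 0.633 and Slc1a4 at 4.55 ± 0.377 with overexpression, against 14.4 ± 0.527 and 12.1 ± 0.695 in the controls.

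Slc38a2 (chromosome 15, 96687392 to 96699730, minus strand), the system A carrier SNAT2, was the most abundant of the 63 genes by CPM averaged over both groups. In the controls its mean lay below those of Slc3a2 and Slc7a5, at 322 and 249 CPM. Slc38a2 had 427, 444 and 429 CPM with overexpression and 250, 241 and 238 CPM in the controls, a 1.78-fold rise (log2 0.84 ± 0.03 SE, n = 3 each, edgeR adjusted p = 3.52e-37). Slc38a1 (chromosome 15, 96571418 to 96642913, minus strand), the glutamine carrier SNAT1 whose gene lies beside it, had 221, 217 and 224 CPM with overexpression, against 95.6, 91.6 and 92.7 CPM in the controls. Both genes were higher in every overexpression library, and Slc38a1 rose 2.37-fold (log2 1.24 ± 0.03 SE, edgeR adjusted p = 5.73e-40). Its gene model is long, at 17236 bases, and with the trend on gene length removed its log2 fold change was 0.59, still called higher, while that of Slc38a2 was 0.47. Their relative Slc38a4 had 0 counts with overexpression and 1 in the controls.

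Large neutral amino acids also leave and enter cells by facilitated diffusion through Slc43 carriers, which need no heavy chain. Slc43a2 (ENSMUSG00000038178, chromosome 11, 75531694 to 75577575, plus strand), the LAT4 carrier of branched-chain amino acids, phenylalanine and methionine, showed the largest fall of the 23 genes. It had 3.96, 4.22 and 3.54 CPM with overexpression, against 53.6, 55.1 and 58.9 CPM in the controls. Every overexpression library was far below every control, and the fall was 14.3-fold (log2 -3.84 ± 0.10 SE, n = 3 each, edgeR adjusted p = 3.69e-42). The annotation holds the antisense gene Gm45606 over 922 of its 10042 exon bases, and with the strand setting of the counting not given in the sources, reads of both strands cannot be told apart there. The other Slc43 genes, Slc43a1 and Slc43a3, had no count in any library. Slc6a15, a carrier of branched-chain amino acids and proline, was near the limit of detection at 0.958 ± 0.200 CPM with overexpression and 0.817 ± 0.374 CPM in the controls, and was not called (edgeR adjusted p = 0.599).

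Of the carriers tied to the lysosome, Slc38a9 and Slc38a7 were lower and Slc36a1 had no call, while Slc36a4, a relative of Slc36a1, was higher. Slc38a9 (chromosome 13, 112660751 to 112738749, plus strand), the lysosomal arginine sensor that signals to mTOR, had 12.9, 11.4 and 9.28 CPM with overexpression and 18.1, 14.9 and 17.5 CPM in the controls. The groups did not overlap, and the fall was 1.51-fold (log2 -0.60 ± 0.11 SE, n = 3 each, edgeR adjusted p = 2.81e-06). It was not called against a minimum of 1.5-fold (edgeR adjusted p = 0.386), and with the trend on gene length removed it stood at -1.24. Slc38a7 (chromosome 8, 95835920 to 95853539, minus strand), which exports glutamine from lysosomes, had 27.1, 29.4 and 27.7 CPM with overexpression, against 47.8, 52.2 and 53.4 CPM in the controls. This is a 1.82-fold fall with no overlap (log2 -0.86 ± 0.07 SE, edgeR adjusted p = 1.40e-18).

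The proton-coupled lysosomal carrier Slc36a1, or PAT1, had 32.2 ± 1.20 CPM with overexpression and 31.9 ± 4.16 CPM in the controls and was not called (log2 0.01 ± 0.08 SE, edgeR adjusted p = 0.905). With upper quartile scaling it was called lower, at -0.22. Its relative Slc36a4 (chromosome 9, 15709738 to 15743361, plus strand), which carries proline and tryptophan, had 13.3, 14.1 and 15.9 CPM with overexpression and 7.28, 6.26 and 6.73 CPM in the controls. It rose 2.14-fold with no overlap (log2 1.10 ± 0.12 SE, n = 3 each, edgeR adjusted p = 5.56e-12), and is the gene with the seed match at base 3508 of its 3' UTR. The less characterised Slc38a6, which also holds a seed match, had 8.07, 6.40 and 7.13 CPM with overexpression, against 12.1, 12.4 and 10.1 CPM in the controls. It fell 1.60-fold (log2 -0.68 ± 0.13 SE, edgeR adjusted p = 4.73e-06) and was not called against a minimum of 1.5-fold (edgeR adjusted p = 0.169). Slc38a10, the abundant and less characterised member of its family, had 173, 169 and 175 CPM with overexpression and 190, 211 and 210 CPM in the controls. Its fall was small, at 1.18-fold (log2 -0.24 ± 0.03 SE, edgeR adjusted p = 2.99e-09), and was not called against a minimum of 1.5-fold.

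In the Slc6 family the abundant members carry solutes other than the amino acids of proteins. Slc6a6 (chromosome 6, 91684053 to 91759066, plus strand), the taurine carrier, had 285, 264 and 287 CPM with overexpression and 219, 202 and 198 CPM in the controls. The groups did not overlap, with a 1.35-fold rise (log2 0.43 ± 0.03 SE, n = 3 each, edgeR adjusted p = 8.99e-16). Slc6a8, the creatine carrier, rose 1.30-fold, to 82.0 ± 2.63 CPM with overexpression against 63.3 ± 2.57 CPM in the controls (edgeR adjusted p = 4.45e-10). Neither rise was called against a minimum of 1.5-fold, and Slc6a6 stood at 0.09 on the log2 scale with the trend on gene length removed. Slc6a9 (chromosome 4, 117834506 to 117875198, plus strand), the glycine carrier GlyT1, had 7.06, 7.13 and 7.20 CPM with overexpression, against 16.8, 15.4 and 15.2 CPM in the controls. It fell 2.22-fold (log2 -1.15 ± 0.12 SE, edgeR adjusted p = 2.33e-13), and 1429 of its 5141 exon bases are shared with Ccdc24 on the opposite strand. Gm17114 and B4galt2, also on that strand, share 511 and 46 of its exon bases. Opposite-strand genes further share exon bases with Slc6a6 (117), Slc38a10 (367) and Slc38a9 (182).

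Most of the other genes were silent or nearly so at this depth. In 21 of the 63 genes no read was counted in any library, among them the glutamate carriers Slc1a1, Slc1a3 and Slc1a6 and the broad neutral and cationic carrier Slc6a14. A further 19 had between 1 and 39 counts over the 6 libraries, 14 of them at most 10, and did not pass the filter. For scale, 3 counts in a library equal 0.183 to 0.210 CPM before TMM scaling. A gene with no count may thus still be present below that level, and this limit covers counting error only. The glutamate carrier Slc1a2 had 0, 2 and 11 counts with overexpression and 11, 9 and 5 in the controls. Slc1a7, the retinal glutamate carrier, had 0 counts with overexpression and 14 in the controls, a total that is at least 4.77-fold lower if 3 counts summed over the 3 libraries are taken as the limit. It was not tested here, and the authors' deposited table gives it an adjusted p of 0.017. The monoamine carriers Slc6a2, Slc6a3 and Slc6a4 had 4, 0 and 8 counts with overexpression and 0, 1 and 5 in the controls.

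The order of the genes by FPKM differed between the groups. The FPKM sums, which carry no TMM scaling, overlapped between the groups, while the TMM-scaled CPM sums were higher in every overexpression library. The 63 genes summed to 356, 363 and 363 FPKM with overexpression and to 362, 363 and 364 FPKM in the controls. In TMM-scaled CPM, where length plays no part, they summed to 2264, 2289 and 2309 with overexpression and 1893, 1887 and 1892 in the controls. With overexpression the order was led by Slc7a5 (64.1 ± 1.20 FPKM), Slc38a2 (47.5 ± 1.04), Slc3a2 (44.1 ± 1.09), Slc1a5 (34.0 ± 0.633), Slc6a6 (31.9 ± 1.47) and Slc7a6 (29.0 ± 1.03). In the controls it was led by Slc3a2 (94.4 ± 2.04 FPKM), Slc7a5 (69.3 ± 1.86), Slc38a10 (32.8 ± 1.82), Slc38a2 (28.4 ± 0.786) and Slc6a6 (25.2 ± 1.43). Slc3a2 alone took 11.9 to 12.5% of the sum with overexpression and 25.6 to 26.7% in the controls. Between neighbours among these leading genes the libraries overlapped only for Slc6a6 and Slc7a6 with overexpression, and for none of the 5 leading genes of the controls.

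Transcripts of several of these carriers are known to be induced by the transcription factor ATF4 when amino acids run short, through elements that hold the letters TGATGNA, where N is any base. These letters were searched on both strands of RefSeq promoters, 250 bases before to 50 after each start (GRCm38.p6). Promoters were matched for 15 of the 23 tested genes, and 3 of these held a match (20.0%), against 8.69% of the 9437 tested genes with a promoter. All 3, Slc1a4, Slc6a9 and Slc7a7, were among the genes called lower, of which 9 had a promoter, and 0 of the 4 genes called higher with a promoter held a match. Of the 8 family genes called higher only these 4 had a matched promoter, and bases outside this window were not searched. A gene was counted if any of its promoters held a match. The 15 family genes had 24 promoters and the 9437 genes had 12117, so more sequence per gene was searched in the family. A match describes letters and is not a bound site. Whether ATF4 has a part in the changes of these genes was not tested. The 3 promoters are shown 5′ to 3′ with the match in capitals, for Slc1a4 chr11:20332664-20332963 (minus strand), for Slc6a9 chr4:117849100-117849399 (plus strand) and for Slc7a7 chr14:54417653-54417952 (minus strand).
Slc1a4: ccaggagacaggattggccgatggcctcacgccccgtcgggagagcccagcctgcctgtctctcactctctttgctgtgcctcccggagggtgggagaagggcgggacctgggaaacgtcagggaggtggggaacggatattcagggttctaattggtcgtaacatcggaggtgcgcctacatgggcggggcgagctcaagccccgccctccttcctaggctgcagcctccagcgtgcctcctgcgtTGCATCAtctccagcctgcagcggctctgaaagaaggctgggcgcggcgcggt
Slc6a9: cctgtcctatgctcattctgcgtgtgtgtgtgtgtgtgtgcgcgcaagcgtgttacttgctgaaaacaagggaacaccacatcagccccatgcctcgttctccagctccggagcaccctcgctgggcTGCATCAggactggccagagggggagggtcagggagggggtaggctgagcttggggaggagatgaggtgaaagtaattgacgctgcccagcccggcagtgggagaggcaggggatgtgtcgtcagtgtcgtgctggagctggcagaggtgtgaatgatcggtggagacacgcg
Slc7a7: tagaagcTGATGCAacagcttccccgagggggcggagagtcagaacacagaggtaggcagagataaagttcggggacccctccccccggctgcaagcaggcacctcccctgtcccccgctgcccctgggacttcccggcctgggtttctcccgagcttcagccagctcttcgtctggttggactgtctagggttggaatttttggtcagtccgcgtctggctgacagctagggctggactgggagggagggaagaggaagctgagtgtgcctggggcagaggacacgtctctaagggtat
The match begins at position -3 from the start in Slc1a4, at -123 in Slc6a9 and at -243 in the Slc7a7 promoter shown. With only the 250 bases before the start searched, Slc1a4 held no match. Then 2 of the 15 tested family genes held a match (13.3%), against 7.64% of the 9437 tested genes. Slc6a9 has several starts, and of these only the promoter shown holds a match. RefSeq gives 5 starts for Slc7a7, and the promoter of a second one holds 2 matches, of which 1 is the match shown here and the other lies further upstream.

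Genes that sense or answer amino acid supply were counted from lists that do not hold the 63 genes. In the amino acid response list, the genes of the GCN2 and ATF4 pathway and their targets, 12 of 15 tested genes fell and 2 rose, with a median log2 fold change of -1.14 against -0.03 over all genes. These counts are 80.0% lower and 13.3% higher, where 43.9% of all tested genes were called lower and 42.1% higher. Trib3, a pseudokinase target of ATF4, had 9.80, 11.1 and 9.53 CPM with overexpression, against 167, 163 and 169 CPM in the controls (edgeR adjusted p = 1.72e-54). Ddit3, which encodes the stress factor CHOP, fell 9.44-fold, and Nupr1 and Ddit4, both stress-induced, fell 7.71-fold and 7.13-fold (largest edgeR adjusted p of the 3 = 1.74e-40). Atf4 itself averaged 224 ± 6.67 CPM with overexpression and 313 ± 7.91 CPM in the controls. The genes called higher were Eif2s1, a subunit of the initiation factor eIF2, and Eif2ak4, the kinase GCN2 that senses uncharged tRNA, at 252 ± 3.66 and 53.5 ± 0.767 CPM with overexpression against 113 ± 4.21 and 27.4 ± 1.95 CPM in the controls. These 2 genes and Atf4 were named after their values were seen.

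Nutrient sensing at the lysosome had 13 genes that rose and 20 that fell among 35 tested, with a median log2 fold change of -0.27. The shares are 37.1% and 57.1%, beside 42.1% higher and 43.9% lower over all tested genes, and the counts were 10 and 22 with upper quartile scaling. Sesn3 and Sesn2, of the sestrin family that restrains mTORC1 when leucine is low, fell 3.25-fold and 3.51-fold. Lamtor2, a part of the Ragulator complex that anchors mTORC1, fell 3.24-fold, to 22.4 ± 0.809 CPM with overexpression against 72.4 ± 1.02 CPM in the controls. Mtor, the kinase itself, rose to 88.9 ± 2.10 CPM with overexpression against 45.3 ± 0.408 CPM in the controls (edgeR adjusted p = 4.50e-26).

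Amino acid metabolism had 15 genes that rose and 11 that fell among 27 tested, with a median of 0.22. These are 55.6% and 40.7% of the list, beside 42.1% and 43.9% of all tested genes, and the balance turned to 11 higher and 12 lower with upper quartile scaling. Odc1, the first enzyme of polyamine synthesis from ornithine, had 1350, 1330 and 1330 CPM with overexpression and 268, 276 and 278 CPM in the controls, a 4.87-fold rise (edgeR adjusted p = 4.95e-63). Phgdh, the first enzyme of serine synthesis, rose 1.61-fold (edgeR adjusted p = 3.59e-33). Gpt2, an alanine transaminase, fell 3.38-fold, to 20.0 ± 0.616 CPM with overexpression against 67.7 ± 1.85 CPM in the controls.

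Among other amino acid carriers and accessory proteins 5 of 18 tested genes rose and 8 fell, with a median of 0.00. The share that fell, 44.4%, is at the 43.9% of all tested genes, and the share that rose, 27.8%, is below their 42.1%. Slc7a11, the cystine and glutamate exchanger, had 11.2, 11.3 and 11.7 CPM with overexpression and 83.1, 89.1 and 85.1 CPM in the controls (7.50-fold lower, edgeR adjusted p = 1.05e-43). Ctns, the lysosomal cystine exporter, fell 5.13-fold and Sfxn3, a mitochondrial sideroflexin, 2.34-fold. Sfxn1, the mitochondrial serine carrier, rose 1.70-fold (edgeR adjusted p = 8.58e-27).

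**Figure D4:**
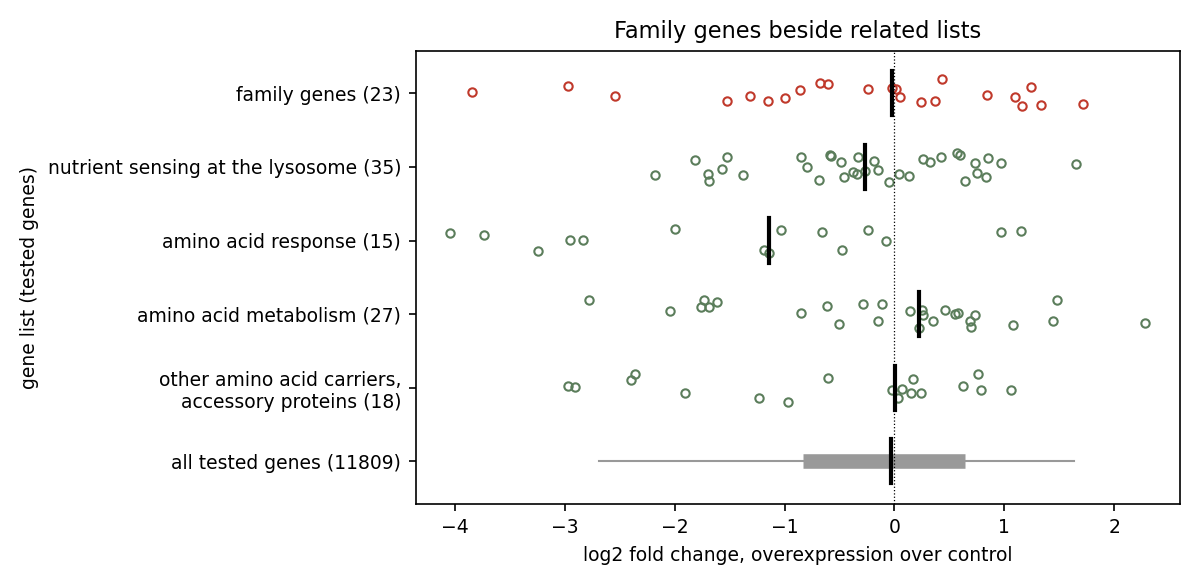
Log2 fold change of each tested gene (circles) in the family and in 4 related lists, with the list median as a black bar. For all 11809 tested genes the thick bar spans the middle quartiles and the thin line the 5th to 95th percentile. The amino acid response list has its median at -1.14, the family at -0.02.

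The calls on the family genes were also those of the authors' deposited table. Among the 23 genes the authors' deposited table has 8 higher and 11 lower at an adjusted p under 0.05, and its call matches in 23 of 23. That table rests on the same libraries, and its direction was read from the match with these fold changes. The match is therefore no independent check.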

How the data were processed

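The authors deposited a table that, per the file headers, holds raw read counts and FPKM values per gene. Recomputing each nonzero FPKM from the count, the deposited gene length and the column total gave the deposited value to within 4.1e-12%. HISAT2, HTSeq and DESeq are named in the submitters' processing notes without versions, as is the build mm9, but all 63 family genes have the chromosome, start and end of GENCODE M21 on GRCm38, which is used here. How reads of overlapping or related genes were assigned is not given in these sources. A table deposited by the authors holds log2 fold changes and adjusted p-values of their own comparison, and infinite log2 values where a group is at 0. Its direction is B over A, with B read here as overexpression because its values match the fold changes of the labelled libraries; its group means were not used. The deposited read statistics give counts of reads and the percent kept, with between 91.54 and 93.49 percent of raw reads kept.

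Counts were fitted in edgeR 4.0.16 (R 4.3.3) with filterByExpr (minimum count 10), TMM scaling, and a robust quasi-likelihood fit without covariates on all 6 libraries. The common coefficient of variation was 2.93%. The script was tested on simulated data. Alternatives were upper quartile scaling, DESeq2 1.42.0, no filter, a loess trend on gene length removed (span 0.5), a minimum of 1.5-fold, log2 FPKM with pseudocounts 1 and 0.1 in limma 3.58.1 (mean FPKM at least 0.1, or no filter), the replicate block, and each library left out. The family genes and lists were chosen with earlier results of these data known. Every family gene may be named, and values per library are given for those called with at least 5 CPM and 1.5-fold, for the 5 most abundant by mean CPM and for the heavy chains; those of Slc7a7 and Slc1a2 were added after their values were seen. Of each list up to 4 genes with the smallest p are named. Some genes are counted but not reported by name here. Libraries of a group differed by more than sampling noise, with a chi-square per gene from 1.87 to 2.64.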

Additional observations from a re-analysis of the deposited data

How the results depend on the processing

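Of 345 pairs of a tested family gene and an alternative, 319 kept the direction and side of the threshold, and 193 of 195 for the 13 genes changed at least 1.5-fold at 5 CPM or more. Turned values that passed the threshold were those of Slc36a1 (-0.22) and Slc7a6os (-0.18) with upper quartile scaling and Slc7a5 (0.14) with the length trend removed. The other values that turned belong to the 4 genes with no call and passed no threshold. They were Slc36a1 (-0.10) and Slc6a15 (-0.06) with the length trend removed, Slc36a1 (-0.06, -0.07 and -0.06) and Slc7a6os (-0.04 in each) in the 3 FPKM fits, and Slc7a5 (0.00) without the filter. With single libraries left out Slc36a1 lay between -0.09 and 0.08, Slc6a15 between -0.06 and 0.60 and Slc7a5 between -0.03 and 0.01. The family counts of 8 higher and 11 lower were 8 and 11 in each of the 6 fits without 1 library, 8 and 14 with upper quartile scaling, 10 and 11 with the length trend removed, and 6 and 8 against a minimum of 1.5-fold. Upper quartile scaling moved the median of all genes from -0.03 to -0.26 and the split of calls over all genes from 4975 higher and 5184 lower (49.0% higher) to 3961 and 6288 (38.6%), so changes are read against that shift. The median of the tested family genes was -0.25 with upper quartile scaling. In DESeq2 and without the filter the median took in all 42 family genes with any count, at -0.75 and -0.69. DESeq2 gave an adjusted p for 30 of these 42. Among the tested family genes the median was -0.10 with the length trend removed, and -0.09 and -0.19 in FPKM with a pseudocount of 1 and 0.1. Leaving out single libraries moved it between -0.21 and -0.01. Against a minimum of 1.5-fold 2762 genes were higher and 3185 lower, with 6 and 9 in the lysosomal sensing list, 6 and 7 in amino acid metabolism and 3 higher among other carriers. FPKM with a pseudocount of 1 took the log2 fold change of Slc43a2 to -2.29, Slc7a4 to -0.85, Slc7a7 to -0.99 and Slc7a3 to -0.48, all still called, as such values understate changes of low genes. The shorter seed match to bases 2 to 7 was held by 6 of the 23 tested genes (26.1%, against 27.5% of all genes).

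The replicate numbers in the titles are not stated to mark a shared culture or day, and the deviations of same-numbered libraries correlated at -0.005, 0.006 and -0.029, and only control library 2 correlated best with the overexpression library of its own number. The fit with the replicate block called 8 family genes higher and 11 lower, and 4955 and 5161 of all genes. Genes near 1 CPM rest on few reads, and their calls are limited by depth.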
